A study of Mus musculus with 28 samples.

Results

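The genes described here are 36 enzymes, transporters and switch proteins of central carbon metabolism: glucose and lactate transport, glycolysis, the pyruvate branch point, the tricarboxylic acid (TCA) cycle and the pentose phosphate pathway. They were chosen by name from the pathway, with earlier results of these data known. All 36 were found among the 55487 gene identifiers of the files, and all 36 passed the filter on low values that left 13631 genes for testing. The question was how the RNA of these genes differed between macrophages kept under different cytokines, and between macrophages that had or had not taken up dead T cells.

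The RNA came from macrophages grown in culture from the bone marrow of wild-type mice. There were 7 groups of 4 libraries, 28 in all. One group, M0, was kept for 48 h without a polarizing cytokine. The other 6 groups were kept for 48 h with 50 ng/mL of IFN-γ or with 50 ng/mL of IL-10. Per the series' description, those cultures held T cells that had been killed with ATP/NAD+ and stained with a fluorescent antibody against CD4, either regulatory T cells (Treg) or conventional CD4+ T cells (Tconv). Under each cytokine the macrophages were sorted into Treg-phagocytic, Tconv-phagocytic and non-phagocytic cells. The description places non-polarizing cultures among the co-cultures too, but the labels of the M0 libraries name no T cells and no uptake status, so in any contrast with M0 the effects of cytokine, T cells and sorting cannot be told apart. For all 8 Treg-phagocytic libraries, title and library name gave different antibody dyes (BV421 or Ax647). Libraries are named below after their titles. No label says that the 4 libraries of a group came from separate animals or cultures, so the p-values measure only the spread between these libraries, which may be technical.

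Glycolysis turns glucose into pyruvate. Hexokinase traps glucose in the cell, phosphofructokinase commits it to the pathway, and the lower enzymes recover energy and reduce NAD. Pyruvate is then either reduced to lactate, which monocarboxylate transporters export, or oxidized in mitochondria by pyruvate dehydrogenase and the TCA cycle, while the pentose phosphate pathway branches off at glucose 6-phosphate to make NADPH and ribose. Activated macrophages are known for shifting the balance of these routes, and hypoxia-inducible factor 1 (HIF-1) is a known activator of many glycolytic genes.

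Levels are given in scaled TPM, the deposited TPM (transcript abundance relative to all transcripts of a library) divided by a factor for each library that makes the typical gene equal between libraries. Differences are on the scale of log2(scaled TPM + 1), which understates changes of low genes. Genes were called changed at a limma adjusted p under 0.05 (Benjamini-Hochberg over all 13631 genes). Without scaling, the median of all genes would lie at -0.257 between IFN-γ and IL-10 non-phagocytic libraries and at -0.242 between IFN-γ and M0, against 0.014 and 0.013 with it, so changes under IFN-γ are relative to that shift.

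Relative depth, read from the step of the lowest values and given as a share of the deepest library, ranged over 11.2% to 23.2% with IFN-γ (12 libraries), 48.7% to 91.4% with IL-10 (12 libraries) and 68.4% to 100% in M0 (4 libraries). Total counts are unknown, and depth and IFN-γ cannot be told apart by this design. Macrophage markers were abundant in every group, with a summed level of 17000 to 28300 scaled TPM over 10 genes (group means). The 5 genes of an IFN-γ response list summed to 686 scaled TPM in IFN-γ non-phagocytic libraries and 79.6 in M0, and the 3 genes of an IL-10 response list to 438 with IL-10 and 66.0 in M0. RNA of other cells differed between the cytokines too. The 12 T cell genes summed to 451 to 629 scaled TPM in IFN-γ non-phagocytic libraries, 136 to 147 in IL-10 ones and 182 to 238 in M0, and none was at 0 in all libraries of a group. Cd3e, part of the T cell receptor complex, was at 24.2 ± 7.20 (SD, n = 4), 3.53 ± 0.707 and 1.98 ± 0.933 scaled TPM in those groups. By gene, 11 of the 12 were called higher and Il7r lower with IFN-γ against M0 (median 2.85 on the log2 scale). With IL-10 against M0, 0 were called higher and Cd28 and Il7r lower (median 0.17). The sums therefore do not follow the typical gene of the list. The 5 stromal genes summed to 4.15 scaled TPM in IFN-γ non-phagocytic, 61.5 in IL-10 non-phagocytic and 93.1 in M0 libraries. These amounts moved with the cytokine beside every cytokine result below, and their part in those results was not tested. In bulk libraries such as these, fewer cells of a type and less RNA per cell cannot be told apart.

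Levels of the 36 genes covered a wide range within each group. In M0 the most abundant were Aldoa (aldolase A) at 1530 ± 61.0, Gapdh at 1111 ± 10.4 and Pkm (pyruvate kinase M) at 693 ± 38.9 scaled TPM (SD, n = 4), and the least abundant was Aldoc (aldolase C) at 6.26 ± 0.197. Summed over all 36, M0 libraries held 7424 ± 176 scaled TPM, IFN-γ non-phagocytic libraries 5989 ± 147 and IL-10 non-phagocytic libraries 8705 ± 109. The IL-10 sums (8605 to 8834) lay above the M0 sums (7222 to 7626), and the IFN-γ sums (5788 to 6128) lay below them. As a share of the deposited TPM, which no scaling touches, the 36 genes made up 0.825% ± 0.0149 of M0, 0.537% ± 0.00961 of IFN-γ and 0.98% ± 0.0093 of IL-10 libraries (SD, n = 4). Most of this came from the 8 genes of lower glycolysis, which summed to 4549 ± 132, 3396 ± 26.9 and 5809 ± 86.6 scaled TPM. The 10 genes of the TCA cycle and NADP isocitrate dehydrogenase group, which includes the cytosolic enzymes Idh1 and Mdh1, summed to 646 ± 14.0 in M0, 554 ± 14.6 with IFN-γ and 587 ± 9.82 with IL-10.

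**Figure D1:**
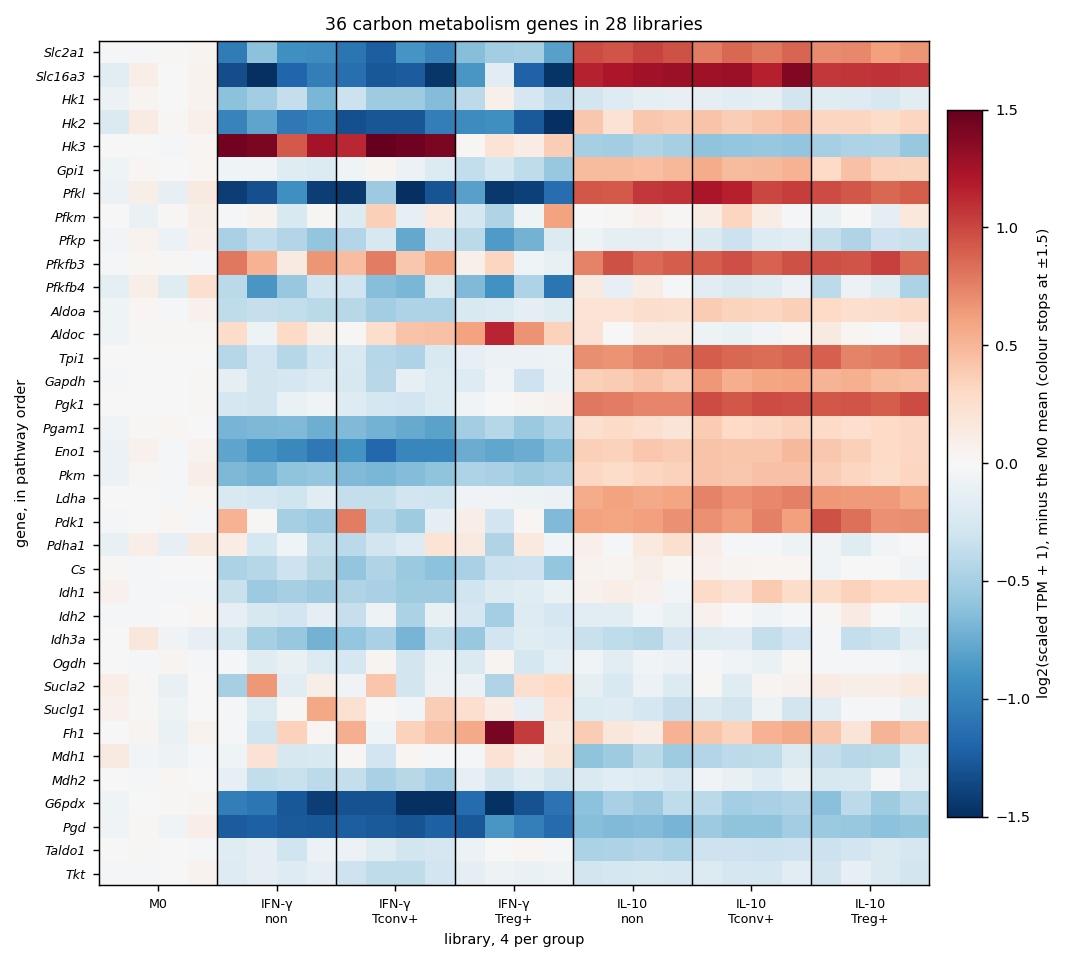
Colour map of the 36 genes (rows, in pathway order) in the 28 libraries (columns, 4 per group, groups divided by black lines); colour is log2(scaled TPM + 1) minus the M0 mean of the gene, blue lower and red higher, stopping at 1.5 either way. Most glycolytic rows are blue in all IFN-γ columns and red in all IL-10 columns, Hk3 is red in the IFN-γ non-phagocytic and Tconv-phagocytic columns, and the pentose phosphate rows at the foot are blue under both cytokines.

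Non-phagocytic macrophages under IFN-γ and under IL-10 were first compared directly. Of the 36 genes, 4 were higher with IFN-γ, 21 were lower and 11 were not called. Over all genes tested, 26.9% were called higher and 23.8% lower, so the share of these genes called lower (58.3%) was above that background and the share called higher (11.1%) below it. Here and below, the shares of all genes cover levels down to the filter of 1 TPM. They were not matched to the levels of the 36 genes. The median difference of the 36 was -0.49 on the log2 scale, against 0.01 over all genes. Both transporters, 3 of 4 genes of the hexokinase step, 3 of 5 of the phosphofructokinase step, 7 of 8 of lower glycolysis and 2 of 3 at the pyruvate branch were lower with IFN-γ. In the group of TCA cycle enzymes and NADP isocitrate dehydrogenases, 1 of 10 was higher (cytosolic Mdh1) and 2 were lower (Cs and cytosolic Idh1). In the pentose phosphate pathway, 2 of 4 were higher and 2 lower.

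Against M0, the 2 cytokines gave different patterns, reported side by side because both comparisons share the M0 libraries. With IFN-γ, 2 of the 36 genes were higher, 25 lower and 9 not called, with a median of -0.27; over all genes, 27.7% were called higher and 25% lower. With IL-10, 16 were higher, 11 lower and 9 not called, with a median of 0.08; over all genes, 13.6% were called higher and 13% lower. Lower glycolysis had 7 of 8 genes lower with IFN-γ and 7 of 8 higher with IL-10, in each case all but Aldoc. All 4 pentose phosphate genes were lower than M0 with IFN-γ and all 4 were lower with IL-10. In the group of TCA cycle enzymes and NADP isocitrate dehydrogenases, 5 of 10 were lower with IFN-γ (Cs, Idh1, Idh2, Idh3a and Mdh2). With IL-10, Fh1 was higher and 5 were lower (Idh2, Idh3a, Suclg1, Mdh1 and Mdh2). Idh1 and Mdh1 in these counts are cytosolic.

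**Figure D2:**
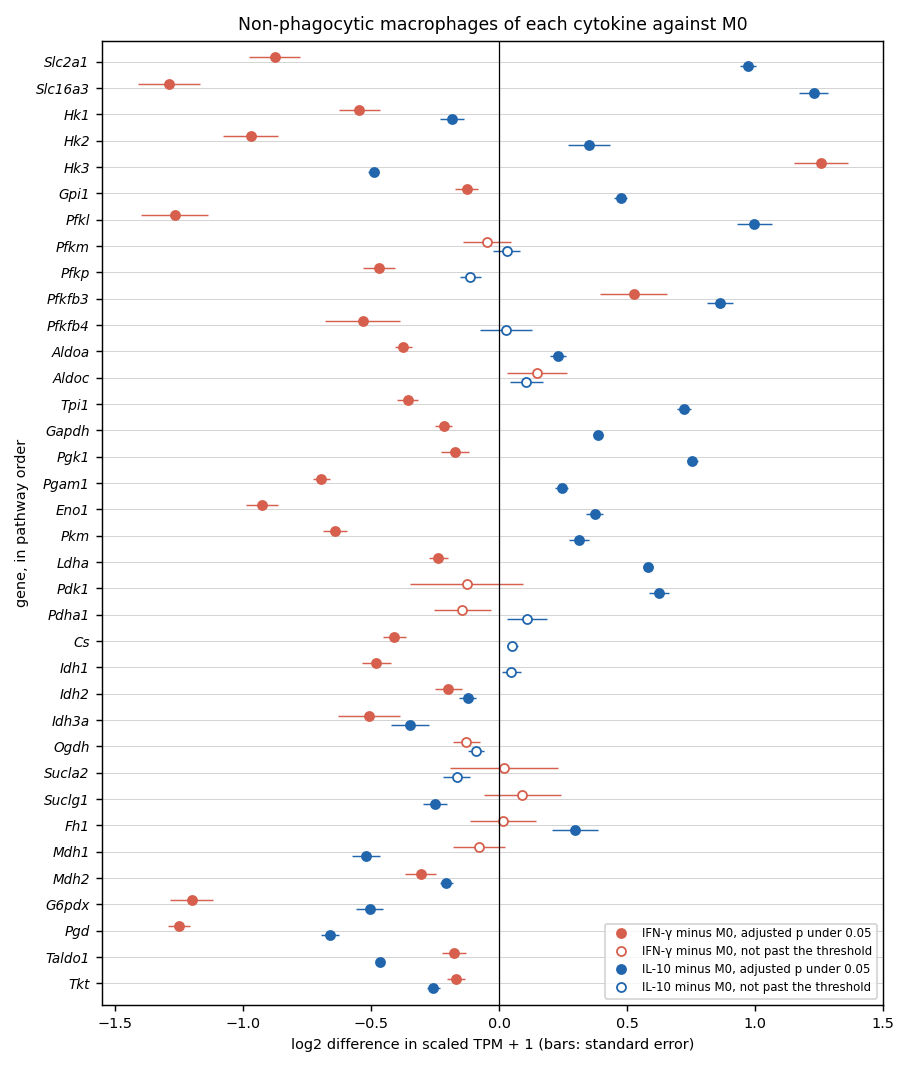
Log2 difference from M0 of each of the 36 genes in non-phagocytic macrophages with IFN-γ (red) and with IL-10 (blue); bars are standard errors, and filled points passed the limma adjusted p of 0.05. Slc16a3, Pfkl and Slc2a1 lie farthest apart, at -1.29, -1.27 and -0.88 with IFN-γ and at 1.23, 1.00 and 0.97 with IL-10, while Hk3 has the reverse order, at 1.26 and -0.49.

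The transporters were among the genes that differed most. Slc16a3 (ENSMUSG00000025161, chromosome 11, 120948480 to 120960868 in GRCm38) encodes MCT4, which exports lactate. Its 4 libraries were at 43.2, 51.7, 48.5 and 50.0 scaled TPM in M0, at 18.6, 15.2, 20.6 and 23.0 with IFN-γ and at 109, 113, 117 and 120 with IL-10. The 3 groups did not overlap. Slc16a3 fell by 1.29 (SE 0.121, limma adjusted p 3.19e-05) on the log2 scale with IFN-γ against M0 and rose by 1.23 (SE 0.057, adjusted p 9.4e-07) with IL-10. Between the cytokines the difference was -2.52 (SE 0.111, adjusted p 2.29e-07), the largest among the 36 genes.

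Slc2a1 (ENSMUSG00000028645, chromosome 4, 119108711 to 119137983) encodes GLUT1, the glucose carrier of most cells. It was at 23.5, 23.6, 24.3 and 24.9 scaled TPM in M0, at 11.2, 15.4, 12.2 and 12.2 with IFN-γ and at 48.3, 47.1, 49.7 and 47.7 with IL-10. Every IL-10 library was above every M0 library, and every IFN-γ library was below. The change was -0.88 (SE 0.1, limma adjusted p 0.000109) with IFN-γ and 0.97 (SE 0.033, adjusted p 1.64e-07) with IL-10, and the cytokines differed by -1.85 (SE 0.096, adjusted p 5.87e-07).

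The 3 hexokinases, which add the first phosphate to glucose, did not move together. Hk2 (ENSMUSG00000000628, chromosome 6, 82725025 to 82774454) encodes the inducible form. It was at 16.1, 20.6, 19.2 and 20.03 scaled TPM in M0, at 8.95, 10.5, 8.43 and 8.83 with IFN-γ and at 25.4, 22.1, 25.2 and 24.9 with IL-10. It fell by 0.97 (SE 0.107, limma adjusted p 8.81e-05) on the log2 scale with IFN-γ, rose by 0.35 (SE 0.081, adjusted p 0.0122) with IL-10, and differed by -1.32 (SE 0.093, adjusted p 4.08e-06) between them. Hk1, the housekeeping form, fell under both cytokines, from 47.0 ± 2.16 in M0 to 32.0 ± 3.36 with IFN-γ (-0.55, SE 0.080, adjusted p 0.000467) and to 41.3 ± 2.00 with IL-10 (-0.18, SE 0.047, adjusted p 0.0194). The call of Hk1 with IL-10 was lost without M0 replicate 2 or 4 (adjusted p up to 0.0553).

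Hk3 (ENSMUSG00000025877, chromosome 13, 55005985 to 55021385) encodes the hexokinase of myeloid cells and was the most abundant hexokinase in every group. Its libraries were at 197, 198, 195 and 202 scaled TPM in M0, at 543, 529, 374 and 472 with IFN-γ and at 140, 137, 145 and 140 with IL-10. The order was thus the reverse of that of Hk2, again with no overlap between the 3 groups. Hk3 rose by 1.26 (SE 0.105, limma adjusted p 1.64e-05) with IFN-γ, fell by 0.49 (SE 0.023, adjusted p 1.16e-06) with IL-10 and was 1.75 (SE 0.105, adjusted p 1.48e-06) higher with IFN-γ than with IL-10. Gpi1, which isomerizes glucose 6-phosphate, rose from 363 ± 10.7 in M0 to 505 ± 6.49 with IL-10 (0.48, SE 0.025, adjusted p 2.16e-06). With IFN-γ it was at 333 ± 18.5, a difference of -0.13 (SE 0.045, adjusted p 0.0426) from groups that overlapped, and this call was lost without any 1 of 5 libraries (adjusted p up to 0.107).

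The isozymes therefore made up different shares of their families. Hk3 was 75.0% ± 1.1 of hexokinase TPM in M0, 91.9% ± 1.8 with IFN-γ and 68.1% ± 0.55 with IL-10 (SD, n = 4), while Hk2 was 7.18% ± 0.64, 1.78% ± 0.2 and 11.8% ± 0.57. Among the phosphofructokinases, the liver form Pfkl was 21.0% ± 0.78 in M0, 12.2% ± 2.1 with IFN-γ and 36.6% ± 1.3 with IL-10. The platelet form Pfkp was the largest in each group, at 67.6% ± 0.53, 71.5% ± 1.1 and 53.4% ± 1.3. For each of these 4 shares, no library of one group reached a library of another in the 3 pairings. The exact two-sided permutation test gave p = 0.0286 in each, the smallest that 4 against 4 libraries allow. Over the 72 share tests run (8 isozymes, 9 pairs of groups), the Benjamini-Hochberg value was 0.0643, so 0 passed 0.05.

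**Figure D3:**
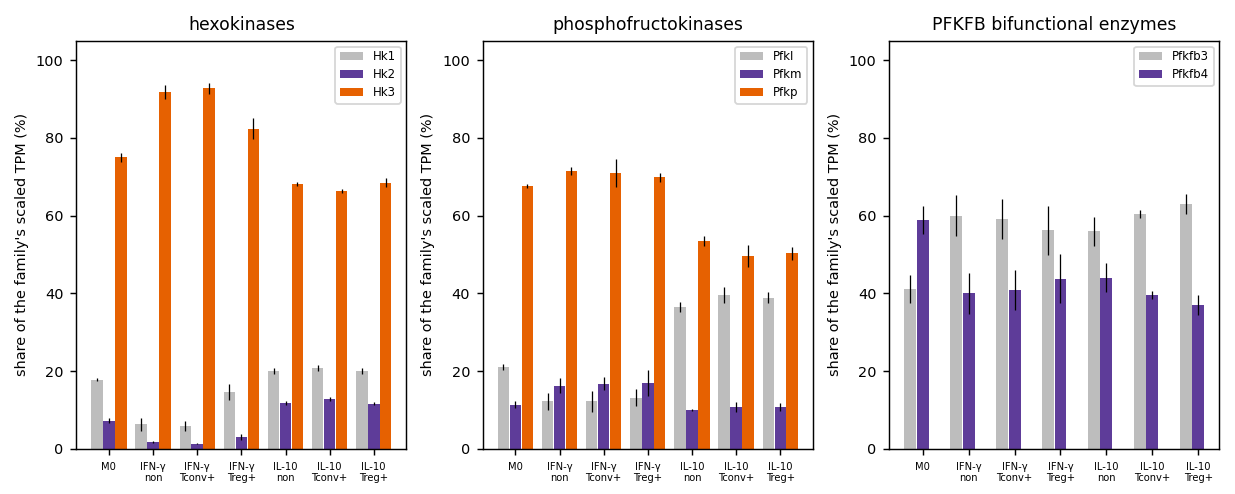
Mean share of each isozyme in its family's scaled TPM (vertical axis, %) in the 7 groups, for hexokinases, phosphofructokinases and the PFKFB enzymes; error bars are the SD over 4 libraries. Hk3 takes 91.9% of hexokinase TPM with IFN-γ and 68.1% with IL-10 in non-phagocytic macrophages, and Pfkl takes 12.2% and 36.6% of phosphofructokinase TPM.

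At the phosphofructokinase step, Pfkl (ENSMUSG00000020277, chromosome 10, 77986947 to 78010083) was at 21.7, 24.7, 21.2 and 25.6 scaled TPM in M0, at 8.06, 8.69, 11.8 and 8.11 with IFN-γ and at 45.1, 45.0, 49.4 and 50.2 with IL-10. All IL-10 libraries lay above M0 and all IFN-γ libraries below. Pfkl fell by 1.27 (SE 0.130, limma adjusted p 5.48e-05) and rose by 1.00 (SE 0.069, adjusted p 1.23e-05), and the cytokines differed by -2.27 (SE 0.119, adjusted p 6.28e-07). The muscle form Pfkm was not called in any of the 3 comparisons and had means of 12.2 to 12.9 scaled TPM in these groups. Pfkp fell with IFN-γ, from 74.9 ± 4.04 to 53.8 ± 3.47 (-0.47, SE 0.063, adjusted p 0.000274), and was at 69.2 ± 1.45 with IL-10, which was not called against M0.

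Pfkfb3 and Pfkfb4 encode bifunctional enzymes that set fructose 2,6-bisphosphate, the main activator of phosphofructokinase. Pfkfb3 (ENSMUSG00000026773, chromosome 2, 11471433 to 11554077) was at 17.0, 17.8, 17.7 and 17.1 scaled TPM in M0, at 30.7, 25.5, 19.1 and 28.03 with IFN-γ and at 29.7, 34.7, 32.0 and 33.6 with IL-10. It was above M0 in all 8 cytokine libraries, and the IFN-γ and IL-10 values overlapped. It rose by 0.53 (SE 0.131, limma adjusted p 0.00875) with IFN-γ and by 0.86 (SE 0.051, adjusted p 4.59e-06) with IL-10, and the difference between them (-0.34, SE 0.134) was not called (adjusted p 0.0616). Without scaling, the rise with IFN-γ was not called (adjusted p 0.149). Pfkfb4 fell with IFN-γ, from 25.1 ± 3.67 to 17.1 ± 3.01 (-0.53, SE 0.146, adjusted p 0.0133), and was at 25.5 ± 2.14 with IL-10.

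In lower glycolysis, Eno1 and Tpi1 had the widest gaps between the cytokines, and Pgk1 the largest rise with IL-10. Eno1 (ENSMUSG00000063524, chromosome 4, 150236721 to 150248879) encodes enolase 1. It was at 347, 384, 362 and 381 scaled TPM in M0, at 212, 200, 188 and 175 with IFN-γ and at 474, 470, 488 and 478 with IL-10, again 3 groups without overlap. It fell by 0.93 (SE 0.062, limma adjusted p 4.02e-06) with IFN-γ and rose by 0.37 (SE 0.034, adjusted p 6.29e-05) with IL-10, a gap of -1.30 (SE 0.055, adjusted p 1.79e-07) between the cytokines.

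Tpi1, triose phosphate isomerase (ENSMUSG00000023456, chromosome 6, 124810586 to 124814296), was at 246, 248, 247 and 247 scaled TPM in M0, at 184, 203, 184 and 200 with IFN-γ and at 400, 395, 413 and 426 with IL-10. The IL-10 libraries stood far above the others: Tpi1 rose by 0.72 (SE 0.026, limma adjusted p 2.29e-07) with IL-10 and fell by 0.36 (SE 0.042, adjusted p 0.000122) with IFN-γ. Between the cytokines it differed by -1.08 (SE 0.045, adjusted p 1.65e-07). Pgk1, phosphoglycerate kinase 1 (ENSMUSG00000062070, chromosome X, 106187100 to 106203699), was at 206, 207, 206 and 211 in M0, at 174, 171, 193 and 201 with IFN-γ and at 360, 355, 346 and 345 with IL-10. Its rise with IL-10 (0.76, SE 0.021, adjusted p 6.38e-08) was clear of the spread. Its fall with IFN-γ (-0.17, SE 0.055, adjusted p 0.0277) was lost when any 1 of 6 libraries was left out (adjusted p up to 0.0708).

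The other lower enzymes followed the same order of groups. Pkm, which makes pyruvate, fell by 0.64 (SE 0.047, limma adjusted p 7.35e-06) with IFN-γ to 443 ± 17.9 scaled TPM and rose by 0.31 (SE 0.039, adjusted p 0.000487) with IL-10 to 860 ± 18.2, a gap of -0.96 (SE 0.035, adjusted p 7.85e-08). Pgam1, phosphoglycerate mutase 1, fell by 0.70 (SE 0.032) and rose by 0.25 (SE 0.026). Aldoa changed by -0.37 (SE 0.033) and 0.23 (SE 0.032), and Gapdh by -0.22 (SE 0.034) and 0.39 (SE 0.021). Aldoc was at 6.26 to 7.08 in the 3 groups and was not called. Gapdh, Ldha, Pgk1, Pgam1, Aldoa, Eno1, Pkm and Tpi1 have processed pseudogenes or near copies in the mouse genome, and how the authors' quantification split shared reads is not given in the sources used here, so their levels are uncertain to that extent. Aldoa has a second gene identifier in the files at 1.84 to 3.92 scaled TPM, and the abundant one was used.

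**Figure D4:**
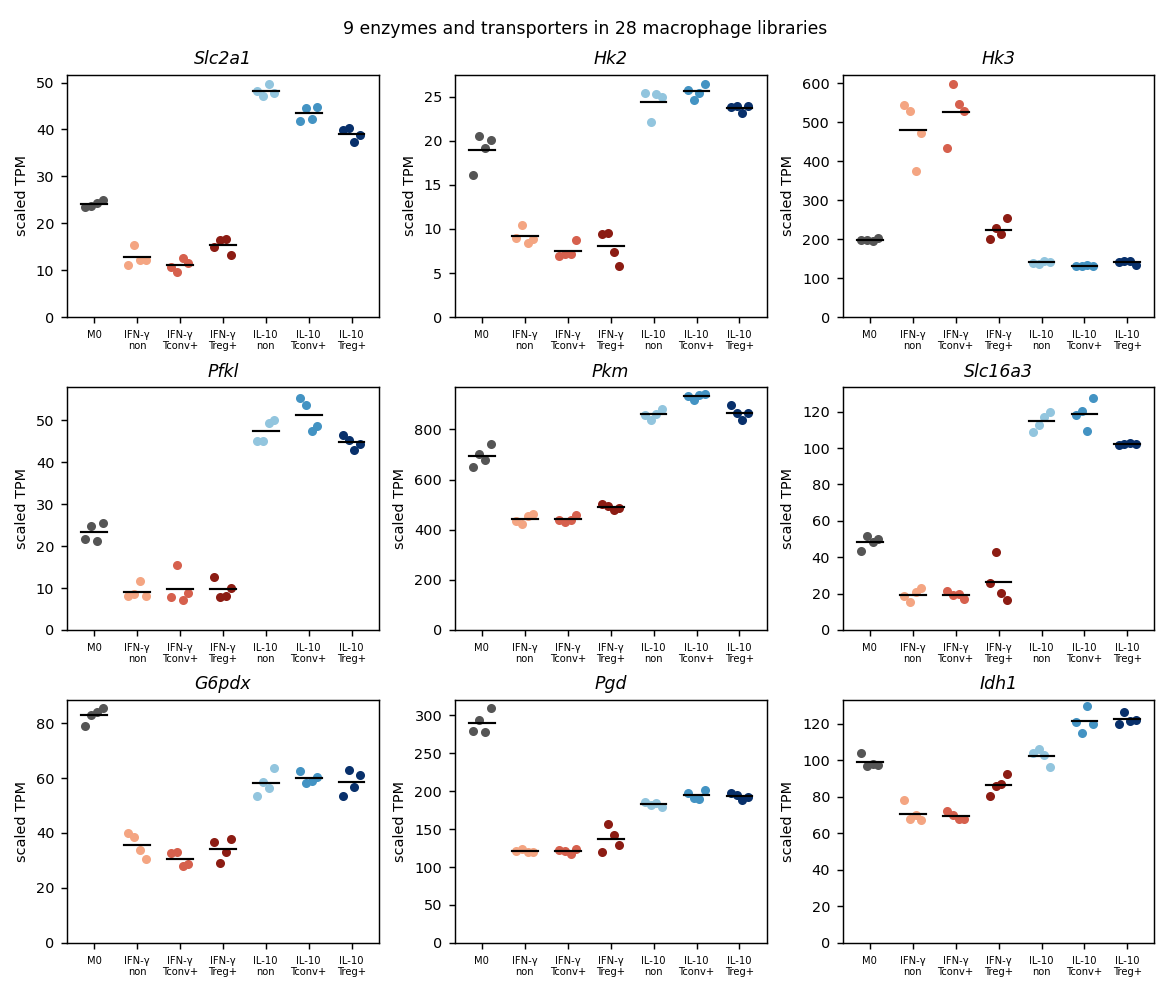
Scaled TPM (vertical axes, from 0) of 9 genes in the 7 groups; each point is a library, and black lines are group means over 4 libraries. Slc2a1, Hk2, Pfkl, Pkm and Slc16a3 are lowest in the 3 IFN-γ groups and highest in the 3 IL-10 groups, Hk3 is highest in IFN-γ non-phagocytic and Tconv-phagocytic libraries, and G6pdx and Pgd are highest in M0.

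At the pyruvate branch point, Ldha, which reduces pyruvate to lactate, was at 302, 303, 300.9 and 309 scaled TPM in M0, at 259, 253, 246 and 272 with IFN-γ and at 448, 462, 451 and 460 with IL-10. It fell by 0.24 (SE 0.037, limma adjusted p 0.000664) with IFN-γ, rose by 0.58 (SE 0.019, adjusted p 1.44e-07) with IL-10 and differed by -0.82 (SE 0.037, adjusted p 2.5e-07) between them. Pdk1, the kinase that switches pyruvate dehydrogenase off, rose with IL-10 from 15.1 ± 0.279 to 23.8 ± 0.762 (0.63, SE 0.038, adjusted p 5.74e-06). With IFN-γ its libraries spread from 9.98 to 22.1 around a mean of 14.4 and it was not called against M0. Pdha1, a subunit of pyruvate dehydrogenase itself, was at 38.6 to 45.9 in the 3 groups and was not called in any comparison.

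Among TCA cycle enzymes and isocitrate dehydrogenases, Cs, citrate synthase, fell from 109 ± 1.03 scaled TPM in M0 to 81.7 ± 4.14 with IFN-γ (-0.41, SE 0.045, limma adjusted p 9.04e-05) and was at 113 ± 2.08 with IL-10, not called against M0. Idh1 (ENSMUSG00000025950, chromosome 1, 65158616 to 65186500), the cytosolic NADP-dependent isocitrate dehydrogenase, fell from 98.9 ± 3.18 to 70.7 ± 5.07 with IFN-γ (-0.48, SE 0.057, adjusted p 0.000142) and was at 102 ± 4.35 with IL-10, not called against M0 (0.05, SE 0.037, adjusted p 0.408). Between the cytokines Idh1 differed by -0.53 (SE 0.060, adjusted p 9.49e-05). Idh3a, a subunit of the NAD-dependent isocitrate dehydrogenase, was at 11.8, 13.5, 11.4 and 10.8 in M0, at 9.70, 8.06, 7.66 and 6.87 with IFN-γ and at 9.20, 8.84, 8.58 and 9.74 with IL-10, so both cytokine groups lay below M0 and overlapped each other. Idh2, Idh3a and Mdh2 were lower than M0 under both cytokines, by -0.20, -0.51 and -0.31 with IFN-γ and by -0.12, -0.35 and -0.21 with IL-10. For Idh2 the IL-10 call was lost without any 1 of 6 libraries (adjusted p up to 0.071).

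Mdh1, cytosolic malate dehydrogenase, was at 131, 116, 113 and 118 scaled TPM in M0, at 114, 139, 101 and 102 with IFN-γ and at 78.0, 81.7, 89.7 and 82.2 with IL-10. The IL-10 libraries were below all others. Mdh1 fell by 0.52 (SE 0.056, limma adjusted p 0.000199) with IL-10 and was 0.44 (SE 0.101, adjusted p 0.00549) higher with IFN-γ than with IL-10. That last call was lost without scaling and with a correction for gene length and GC content (adjusted p up to 0.341). Suclg1, a subunit of succinyl-CoA synthetase, fell by 0.25 (SE 0.046, adjusted p 0.00385) with IL-10. Fh1, fumarase, rose by 0.30 (SE 0.090, adjusted p 0.0411) with IL-10, a call lost without any 1 of 6 libraries (adjusted p up to 0.103). Ogdh and Sucla2 were not called in these 3 comparisons.

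The pentose phosphate pathway was highest in M0. G6pdx (ENSMUSG00000031400, chromosome X, 74409483 to 74429194), the NADPH-producing entry enzyme, was at 79.1, 82.8, 84.0 and 85.4 scaled TPM in M0, at 39.8, 38.5, 33.8 and 30.5 with IFN-γ and at 53.6, 58.7, 56.5 and 63.6 with IL-10. It fell by 1.202 (SE 0.085, limma adjusted p 5.75e-06) with IFN-γ and by 0.51 (SE 0.052, adjusted p 0.000139) with IL-10. Pgd (ENSMUSG00000028961, chromosome 4, 149149991 to 149166771), which makes the second NADPH, was at 279, 293, 279 and 310 in M0, at 122, 124, 120 and 119 with IFN-γ and at 186, 182, 185 and 179 with IL-10. It fell by 1.25 (SE 0.043, adjusted p 1.03e-07) and by 0.66 (SE 0.036, adjusted p 2.81e-06). Both of these oxidative enzymes were lower with IFN-γ than with IL-10, by -0.70 (SE 0.094, adjusted p 0.000269) for G6pdx and -0.59 (SE 0.033, adjusted p 1.03e-06) for Pgd.

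The non-oxidative enzymes, which interconvert sugar phosphates, had another order. Taldo1, transaldolase, was at 482, 487, 484 and 479 scaled TPM in M0, at 424, 441, 391 and 455 with IFN-γ and at 346, 349, 355 and 346 with IL-10, where the 3 groups did not overlap. Tkt, transketolase, was at 156, 155, 159 and 165, at 139, 144, 139 and 143, and at 131, 132, 134 and 133 in the same order of groups. The lowest values of both were with IL-10. Against M0, Taldo1 changed by -0.18 (SE 0.046, limma adjusted p 0.0108) with IFN-γ and by -0.47 (SE 0.017, adjusted p 3.19e-07) with IL-10, and Tkt by -0.17 (SE 0.035, adjusted p 0.00374) and -0.26 (SE 0.024, adjusted p 8.15e-05). Between the cytokines, Taldo1 was 0.29 (SE 0.046, adjusted p 0.000751) and Tkt 0.09 (SE 0.033, adjusted p 0.0496) higher with IFN-γ. The Tkt call with IFN-γ against M0 was lost with a length and GC correction (adjusted p up to 0.469). The differences between the cytokines depended on scaling: without it Taldo1 was at -0.04 (adjusted p 0.483) and Tkt at -0.24 (adjusted p 0.000286), and the Tkt call was also lost without any 1 of 6 libraries (adjusted p up to 0.114).

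Leaving scaling out also moved the split of the calls with IFN-γ, to 1 higher and 30 lower against IL-10, where 17.4% of all genes were then higher and 40.7% lower. Against M0 it moved to 1 higher and 29 lower, with 18.8% and 40.9% of all genes. With IL-10 against M0 it stayed at 16 higher and 11 lower.

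The promoters of the 3 genes with the widest gap between the cytokines (Slc16a3, Pfkl and Slc2a1), of Pgk1 and Ldha from the lower pathway, and of Hk3, which had the opposite order, are shown because HIF-1 is a known activator of this pathway. Each runs from 250 bases before to 50 bases after a RefSeq start site of GRCm38.p6, 5′ to 3′ on the gene's strand, with every match to the core of the hypoxia response element in capitals. The letters searched were ACGTG and GCGTG on both strands, so a match on the other strand reads CACGT or CACGC, and a match shared with the E-box CACGTG also counts. The windows are chr11:120948817-120949116 (+) for Slc16a3, chr4:119108495-119108794 (+) for Slc2a1, chr10:78009758-78010057 (-) for Pfkl, chrX:106186850-106187149 (+) for Pgk1, chr7:46845554-46845853 (+) for Ldha and chr13:55021336-55021635 (-) for Hk3.
Slc16a3: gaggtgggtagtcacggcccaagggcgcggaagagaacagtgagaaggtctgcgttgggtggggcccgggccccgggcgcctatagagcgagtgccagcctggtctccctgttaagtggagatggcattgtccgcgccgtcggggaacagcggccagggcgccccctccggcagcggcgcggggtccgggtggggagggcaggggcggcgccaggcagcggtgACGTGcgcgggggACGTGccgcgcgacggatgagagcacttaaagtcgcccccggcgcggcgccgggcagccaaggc
Slc2a1: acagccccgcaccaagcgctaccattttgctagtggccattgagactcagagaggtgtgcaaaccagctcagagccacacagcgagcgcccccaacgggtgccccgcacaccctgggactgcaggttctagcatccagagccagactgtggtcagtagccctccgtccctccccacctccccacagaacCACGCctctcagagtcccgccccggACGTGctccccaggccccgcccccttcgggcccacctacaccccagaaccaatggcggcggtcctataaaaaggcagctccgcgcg
Pfkl: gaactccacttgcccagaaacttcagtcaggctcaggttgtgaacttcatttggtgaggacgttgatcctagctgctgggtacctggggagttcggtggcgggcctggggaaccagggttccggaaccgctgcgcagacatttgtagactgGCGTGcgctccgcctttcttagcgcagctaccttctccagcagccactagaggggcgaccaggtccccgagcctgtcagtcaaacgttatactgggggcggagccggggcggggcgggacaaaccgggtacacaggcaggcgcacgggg
Pgk1: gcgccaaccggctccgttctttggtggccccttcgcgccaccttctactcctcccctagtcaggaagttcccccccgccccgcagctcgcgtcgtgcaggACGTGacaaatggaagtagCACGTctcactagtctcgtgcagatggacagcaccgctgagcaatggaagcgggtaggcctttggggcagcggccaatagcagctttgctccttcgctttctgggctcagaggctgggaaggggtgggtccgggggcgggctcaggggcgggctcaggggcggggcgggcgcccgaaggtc
Ldha: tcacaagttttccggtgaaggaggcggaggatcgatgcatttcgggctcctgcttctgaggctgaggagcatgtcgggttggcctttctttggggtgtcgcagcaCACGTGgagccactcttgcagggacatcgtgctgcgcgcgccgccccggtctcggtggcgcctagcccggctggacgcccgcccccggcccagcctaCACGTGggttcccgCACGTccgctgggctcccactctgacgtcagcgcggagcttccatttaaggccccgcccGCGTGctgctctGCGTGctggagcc
Hk3: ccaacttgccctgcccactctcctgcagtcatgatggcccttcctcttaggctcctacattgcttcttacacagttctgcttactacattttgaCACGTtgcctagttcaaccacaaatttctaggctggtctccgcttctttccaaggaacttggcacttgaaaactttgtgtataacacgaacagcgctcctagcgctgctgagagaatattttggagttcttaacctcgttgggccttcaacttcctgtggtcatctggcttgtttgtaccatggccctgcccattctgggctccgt
Slc16a3 and Pgk1 each held 2 matches, both of the ACGTG form, Slc2a1 held 2 with 1 of that form, Pfkl held 1 of the GCGTG form and Ldha held 7 with 5 ACGTG and 2 E-boxes. Hk3 held 1 match too, of the ACGTG form, although its levels had the opposite order. Over the family, 35 genes had a promoter in the table, with 55 start sites, of which 45 (81.8%) held a core match, against 43.8% of all 32851 promoters in it. The stricter ACGTG was in 45.5% against 19.6%, the E-box CACGTG in 10.9% against 7.15%, and the antioxidant response core TGACNNNGC in 10.9% against 12.4%. These shares were not matched for base composition, and both forms of the core hold the letters CG. Several start sites of a gene overlap, and a match describes letters only.

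Other genes of these pathways were counted from lists. Of 14 regulators, 13 were tested. With IL-10 against M0, 4 were higher (Hif1a, Egln1, Egln3, Txnip) and 2 lower (Myc, Tfeb). These were 30.8% and 15.4%, against 13.6% and 13% of all genes. With IFN-γ, 6 were higher (Hif1a, Arnt, Vhl, Txnip, Tfeb, Nfe2l2) and 5 lower (Egln1, Egln3, Myc, Mlxip, Prkaa1). These were 46.2% and 38.5%, against 27.7% and 25% of all genes. Hif1a, the regulated subunit of HIF-1, rose from 28.5 ± 1.69 scaled TPM in M0 to 80.01 ± 4.42 with IL-10 (1.46, SE 0.053, limma adjusted p 2.72e-07) and to 45.6 ± 5.18 with IFN-γ (0.66, SE 0.086, adjusted p 0.000246). Egln3, a HIF-induced prolyl hydroxylase, rose by 1.32 (SE 0.095) with IL-10 and fell by 0.55 (SE 0.188, adjusted p 0.0362) with IFN-γ. Myc, another activator of metabolic genes, fell by 1.498 (SE 0.112) with IL-10 and changed by -0.71 (SE 0.144) with IFN-γ. Of 14 HIF targets outside glycolysis, 5 were higher and 1 lower with IL-10 against M0, 4 were higher and 6 lower with IFN-γ against M0, and 1 was higher and 9 lower with IFN-γ against IL-10 (35.7% and 7.14%, 28.6% and 42.9%, and 7.14% and 64.3% of the list, to be read against the shares of all genes given above). Bnip3, a mitophagy receptor, rose under both (1.00, SE 0.075, and 0.47, SE 0.119), while Vegfa, an angiogenic factor, fell under both (-0.37 in each).

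Of 13 other glycolysis genes tested, 2 were higher and 2 lower with IL-10 against M0 (15.4% each way), near the 13.6% and 13% of all genes. With IFN-γ 1 was higher and 3 lower (7.69% and 23.1%), not above the 27.7% and 25% of all genes. Slc16a1, the other main monocarboxylate carrier, was at 4.88 ± 0.257 scaled TPM in M0, 6.21 ± 0.330 with IL-10 (0.30, SE 0.065) and 3.33 ± 0.363 with IFN-γ (-0.44, SE 0.119), the same order as Slc16a3 at far lower levels. Of the 10 genes of pyruvate entry into mitochondria, 4 were higher and 3 lower with IFN-γ (40% and 30%), and 0 higher and 2 lower with IL-10 (0% and 20%). The carriers Mpc1 and Mpc2 rose with IFN-γ by 0.51 (SE 0.073) and 0.69 (SE 0.072). Of 9 other TCA cycle genes, 2 were higher and 2 lower with IFN-γ (22.2% each way, under the share of all genes): Sdhb, the iron-sulfur subunit of succinate dehydrogenase, rose by 0.77 (SE 0.045, limma adjusted p 1.95e-06), while Sdha, its flavoprotein subunit, fell by 0.57 (SE 0.108, adjusted p 0.00198). Of 6 other pentose phosphate genes tested, 1 was higher and 2 were lower with IFN-γ against M0 (16.7% and 33.3%). With IL-10 against M0, 0 were higher and 1 was lower (0% and 16.7%). H6pd, the counterpart of G6pdx in the endoplasmic reticulum, fell by 1.49 (SE 0.108) with IFN-γ and by 0.22 (SE 0.043) with IL-10. With IFN-γ, Pgls fell by 0.23 (SE 0.052) and Rpia rose by 0.57 (SE 0.186).

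The uptake comparisons asked whether the kind of dead T cell taken up, or uptake itself, went with different levels. Under IFN-γ, Treg-phagocytic against Tconv-phagocytic macrophages gave 11 of the 36 genes higher, 3 lower and 22 not called, with a median of 0.16 against 0.04 over all genes. Over all genes, 5.16% were called higher and 7.38% lower, against 30.6% and 8.33% of these genes. The 11 were 6 of 8 genes of lower glycolysis, Ldha, Idh1, Mdh2, Taldo1 and Tkt, with rises of 0.15 to 0.31, and the 3 that fell were Hk3, Pfkfb3 and Gpi1.

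Hk3 had the largest change. It was at 434, 599, 548 and 528 scaled TPM in IFN-γ Tconv-phagocytic libraries and at 200, 229, 214 and 255 in Treg-phagocytic ones, 4 of 4 below the lowest Tconv-phagocytic library. It fell by 1.22 (SE 0.109, limma adjusted p 0.00125), and its share of hexokinase TPM was 92.8% ± 1.4 and 82.3% ± 2.7 (exact two-sided permutation p = 0.0286, Benjamini-Hochberg 0.0643). Pfkfb3 was at 24.4, 30.3, 23.3 and 26.5 in Tconv-phagocytic and 18.4, 21.9, 16.6 and 16.0 in Treg-phagocytic libraries (-0.50, SE 0.130, adjusted p 0.0419). Gpi1 was at 347, 374, 342 and 315, and at 281, 302, 278 and 245, in the same order (-0.32, SE 0.075, adjusted p 0.0291). For all 3 genes the groups did not overlap.

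The rises were small and the groups were again separate. Idh1 was at 72.2, 70.03, 67.9 and 67.8 scaled TPM in Tconv-phagocytic and 80.1, 85.8, 87.1 and 92.4 in Treg-phagocytic libraries (0.31, SE 0.059, limma adjusted p 0.0133). Aldoa was at 1149, 1068, 1105 and 1109, and at 1300, 1328, 1388 and 1348 (0.28, SE 0.036, adjusted p 0.00288). Ldha was at 236, 237, 249 and 246, and at 293, 292, 288 and 286 (0.26, SE 0.036, adjusted p 0.00381). Every Treg-phagocytic library of these 3 genes was above every Tconv-phagocytic one.

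Eno1 was at 197, 162, 187 and 186 scaled TPM in Tconv-phagocytic and 219, 214, 219 and 237 in Treg-phagocytic libraries (0.28, SE 0.068, limma adjusted p 0.0318). Pgk1 was at 181, 173, 170 and 180, and at 200, 206, 214 and 217 (0.25, SE 0.045, adjusted p 0.0102). Tkt was at 128, 122, 121 and 130, and at 144, 150, 149 and 150 (0.24, SE 0.044, adjusted p 0.0103). Of the transporters, Slc2a1 was at 10.7, 9.65, 12.5 and 11.5 and at 15.1, 16.5, 16.7 and 13.2, groups that did not overlap, but was not called (0.44, SE 0.128, adjusted p 0.0625). Slc16a3 had 1 high Treg-phagocytic library, Ax647-2 at 42.7, against 16.7 to 25.9 in the other 3, and was not called (adjusted p 0.452); that library was also the shallowest of all, at 11.2% relative depth. Fh1 was at 27.8, 51.4, 39.5 and 20.4 in Treg-phagocytic libraries, with Ax647-2 again the highest, and at 27.4, 17.6, 23.9 and 25.4 in Tconv-phagocytic ones, and was not called (0.48, SE 0.274, adjusted p 0.308).

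**Figure D5:**
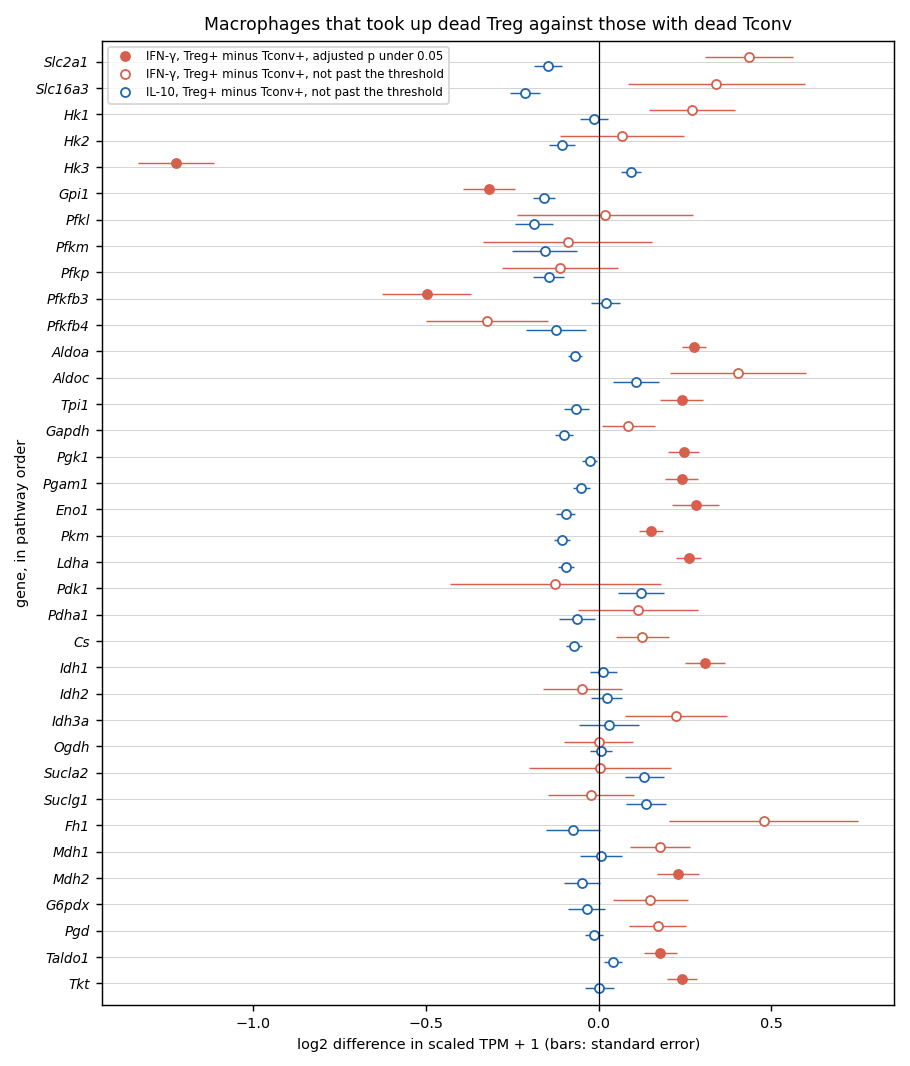
Log2 difference between Treg-phagocytic and Tconv-phagocytic macrophages for the 36 genes, with IFN-γ (red) and with IL-10 (blue); bars are standard errors, and filled points passed the limma adjusted p of 0.05. With IFN-γ, 11 genes are filled to the right of 0 and Hk3, Gpi1 and Pfkfb3 to the left, with Hk3 at -1.22, while no IL-10 point is filled.

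Other measures moved in the same libraries. The 5 genes of the IFN-γ response list summed to 292 scaled TPM in Treg-phagocytic and 677 in Tconv-phagocytic libraries, with 4 of 5 called lower. Hif1a fell by 0.67 (SE 0.110, limma adjusted p 0.00718). The 10 macrophage markers summed to 28300 and 22200, and the T cell list to 651 and 533. Of the macrophage markers, 6 were called higher (60%) and 1 lower (Mertk, 10%), against 5.16% and 7.38% of all genes. Of the 12 T cell genes, 2 were called higher, Cd28 and Il7r (16.7%, against 5.16% of all genes), and 0 of 5 Treg genes were called. Relative depth was 11.2% to 19.6% against 20.6% to 23.2%. The part of these in the result was not tested. Of the 14 calls, Hk3 and Aldoa held under all 15 alternatives run with all libraries and with any 1 library left out. Gpi1, Pfkfb3, Tpi1, Eno1, Pkm, Mdh2 and Taldo1 were lost without 1 library in 4 to 7 of 8 cases (adjusted p up to 0.122). The count fell from 14 to 7 without Tconv-phagocytic Ax647-1 or Treg-phagocytic Ax647-1. It fell to 8 without Tconv-phagocytic BV421-2, Treg-phagocytic BV421-1 or Treg-phagocytic BV421-2. In those fits, 2.83% to 3.82% of all genes were higher and 4.65% to 6.03% lower. Without scaling the count was 5 (2 higher, 3 lower), where 1.79% of all genes were higher and 10% lower. A length and GC correction gave 7 higher and 3 lower, against 5.42% and 6.67% of all genes. Within a single dye, with 2 libraries a group, 0 of the 36 genes and 1 to 15 of all genes were called, Hk3 differed by -1.32 to -1.12 (adjusted p up to 0.0712) and Aldoa by 0.25 to 0.31.

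Against IFN-γ non-phagocytic macrophages, Treg-phagocytic ones had 5 of the 36 genes higher, 1 lower and 30 not called. These were 13.9% higher and 2.78% lower, against 2.93% and 5.41% of all genes. The median was 0.09 against 0.04 over all genes. Of the macrophage markers 6 of 10 were also higher and 1 lower, and 3 of 5 IFN-γ response genes were lower. The T cell list summed to 651 against 513 scaled TPM, with 1 of its 12 genes called higher (Il7r). The part of these in the result was not tested. Hk3 fell by 1.08 (SE 0.126, limma adjusted p 0.00256) from the non-phagocytic values given above. Idh1 was at 78.1, 67.6, 69.97 and 67.2 scaled TPM in non-phagocytic libraries, all below the Treg-phagocytic ones (0.285, SE 0.070, adjusted p 0.0446). Tpi1 (0.26, SE 0.045, adjusted p 0.012) was at 227, 232, 232 and 234 in Treg-phagocytic libraries. Pgam1 was at 238, 241, 243 and 231 in non-phagocytic and 269, 287, 263 and 279 in Treg-phagocytic libraries (0.20, SE 0.040, adjusted p 0.0197). Aldoa was at 1170, 1208, 1184 and 1157 in non-phagocytic libraries, below the Treg-phagocytic values above, and rose by 0.18 (SE 0.030, adjusted p 0.00976). Ldha rose by 0.17 (SE 0.040, adjusted p 0.0358). Leaving out 1 library ended the call of Ldha in 7 of 8 cases, of Idh1 in 6 and of Pgam1 in 2 (adjusted p up to 0.111), and the other 3 held. Without scaling, 1 was higher and 2 were lower, against 1.42% and 6.7% of all genes.

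Tconv-phagocytic against non-phagocytic macrophages under IFN-γ gave 0 of the 36 genes called by limma in either direction, where 0% of all genes were called higher and 0.00734% lower. At an unadjusted p under 0.05, 0 were higher and 3 lower, where 3.13% and 3.25% of all genes were. The 3 were Tkt (-0.17, SE 0.043, adjusted p 0.606), Cs (-0.14) and Aldoa (-0.09). With one variance for all 28 libraries, Tkt was called lower (adjusted p 0.0233). Hk3 was at 480 ± 76.8 in non-phagocytic and 527 ± 68.9 scaled TPM in Tconv-phagocytic libraries (SD, n = 4), which overlapped.

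Under IL-10, Treg-phagocytic against Tconv-phagocytic macrophages also gave 0 of the 36 genes called by limma, where 0.47% of all genes were called higher and 0.917% lower. At an unadjusted p under 0.05, 12 were lower and 3 higher, where 7.21% of all genes were lower and 6.64% higher. Among these, Slc16a3 was at 118, 120, 110 and 128 scaled TPM in Tconv-phagocytic and 102, 102, 103 and 102 in Treg-phagocytic libraries (-0.21, limma adjusted p 0.0616). Pkm was at 935, 917, 936 and 941, and at 895, 866, 836 and 866 (-0.11, SE 0.023, adjusted p 0.0754). Hk3 was at 132 ± 1.25 and 140 ± 5.09, a difference of 0.09 (SE 0.029, adjusted p 0.196). With a variance weight per group, Gpi1, Pkm and Ldha were called lower, and 1 gene was called lower without Tconv-phagocytic Ax647-1 (Slc16a3), Treg-phagocytic Ax647-1 (Pkm) or Treg-phagocytic Ax647-2 (Gpi1). Other measures differed too: 5 of 5 stromal genes and 2 of 3 IL-10 response genes (Socs3, Il4ra) were called lower. Higher were 2 of 12 T cell genes (Cd3d, Il7r) and 1 of 5 Treg genes (Tnfrsf18), and 0 of 10 macrophage markers were called. Relative depth was 48.7% to 65.1% against 75.6% to 91.4%. The part of these in the result was not tested.

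The difference between the cytokines in the Treg against Tconv contrast was tested itself. It was higher under IFN-γ for 11 of the 36 genes and lower for 2, against 5.51% and 7.92% of all genes, with a median of 0.19 against 0.04. In the same contrast 7 of 10 macrophage markers were higher and 1 lower, 4 of 5 IFN-γ response genes lower and 3 of 5 stromal genes higher, and the part of these in the result was not tested. Hk3 differed by -1.32 (SE 0.117, limma adjusted p 6.98e-06) and Pfkfb3 by -0.52 (SE 0.136, adjusted p 0.018). The 11 were Slc2a1 (0.58, SE 0.122, adjusted p 0.0044), Eno1 (0.38, SE 0.074), Ldha (0.35, SE 0.043), Aldoa (0.34, SE 0.040), Tpi1, Idh1, Pgam1, Mdh2, Pgk1, Pkm and Tkt, the last 7 at 0.24 to 0.30. For Slc2a1 the Treg against Tconv difference was 0.44 under IFN-γ and -0.15 (SE 0.040, adjusted p 0.14) under IL-10, neither called by itself. The test of the difference used 1 variance per gene for all 4 groups, although the IFN-γ libraries spread more than the IL-10 ones. With a variance weight per group, 11 genes were higher and 2 lower. Among these 13 calls, leaving out 1 library ended that of Mdh2 (10 of 16 cases, adjusted p up to 0.0813). Without scaling, 6 were higher and 3 lower, against 2.52% and 10.6% of all genes.

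Under IL-10, macrophages that had taken up either kind of T cell also differed from non-phagocytic ones. Treg-phagocytic libraries had 5 of the 36 genes higher and 4 lower, with 27 not called and a median of 0.04. These were 13.9% and 11.1%, against 7.06% and 4.36% of all genes. Tconv-phagocytic libraries had 8 higher and 2 lower, with 26 not called and a median of 0.08. These were 22.2% and 5.56%, against 4.26% and 1.76% of all genes. These 2 comparisons share the non-phagocytic libraries. The stromal list summed to 61.5 scaled TPM in non-phagocytic, 119 in Tconv-phagocytic and 22.8 in Treg-phagocytic libraries. In the same order, the T cell list summed to 142, 170 and 226 and the IL-10 response list to 438, 421 and 360. After Treg uptake, 12 of 12 T cell genes were called higher and 3 of 3 IL-10 response genes lower. Of the 10 macrophage markers, 5 were then higher and 3 lower. After Tconv uptake, 6 of 12 T cell genes and 5 of 10 macrophage markers were higher, and 0 of 3 IL-10 response genes were called. The part of these in the results was not tested.

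Idh1 was at 104, 106, 103 and 96.1 scaled TPM in IL-10 non-phagocytic libraries, at 121, 115, 130 and 120 after Tconv uptake and at 120, 126, 122 and 122 after Treg uptake. Both phagocytic groups were wholly above the non-phagocytic one, by 0.24 (SE 0.044, limma adjusted p 0.0162) and 0.26 (SE 0.035, adjusted p 0.00288). Pgk1 was at 411, 398, 409 and 405 after Tconv uptake (0.21, SE 0.021, adjusted p 0.00136) and 396, 401, 389 and 408 after Treg uptake (0.18, SE 0.023, adjusted p 0.00219). Taldo1 was at 388, 390, 385 and 391 (0.15, SE 0.017, adjusted p 0.00198) and at 385, 395, 415 and 406 (0.20, SE 0.027, adjusted p 0.00295). Gapdh was at 1423, 1444, 1496 and 1450 in non-phagocytic libraries, at 1741, 1621, 1675 and 1684 after Tconv uptake (0.21, SE 0.026, adjusted p 0.00316) and at 1586, 1611, 1550 and 1524 after Treg uptake (0.11, SE 0.024, adjusted p 0.0226), the last call being lost without any 1 of 5 libraries (adjusted p up to 0.0636).

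After Tconv uptake, Tpi1 was at 466, 450, 443 and 452 scaled TPM (0.15, SE 0.028, limma adjusted p 0.0196) and Ldha at 507, 487, 501 and 512 (0.14, SE 0.021, adjusted p 0.00766), all above the non-phagocytic values given earlier. Pkm (0.12, SE 0.020) and Aldoa (0.115, SE 0.022) were also higher. After Treg uptake Sucla2, a subunit of succinyl-CoA synthetase, rose from 24.9, 23.6, 26.04 and 23.9 to 30.3, 29.5, 29.8 and 30.8 scaled TPM (0.28, SE 0.042, limma adjusted p 0.00422). Slc2a1 was lower in both, at 41.8, 44.7, 42.3 and 44.8 after Tconv uptake (-0.15, SE 0.034, adjusted p 0.0415) and at 39.9, 40.4, 37.3 and 38.8 after Treg uptake (-0.295, SE 0.036, adjusted p 0.0018). After Treg uptake Pfkp fell from 70.7, 67.7, 68.3 and 70.1 to 58.0, 54.3, 60.1 and 59.0 (-0.255, SE 0.037, adjusted p 0.00397). Gpi1 fell from 504, 507, 497 and 512 to 448, 491, 462 and 458 (-0.12, SE 0.029, adjusted p 0.0342), a call lost without any 1 of 7 libraries (adjusted p up to 0.0883). Slc16a3 fell by 0.16 (SE 0.032, adjusted p 0.0136) to the 102 to 103 given above. After Tconv uptake Hk3 was lower, at 130, 132, 133 and 131 (-0.10, SE 0.022, adjusted p 0.0444). The count after Tconv uptake fell from 10 to 6 without non-phagocytic replicate 1, Tconv-phagocytic BV421-1 or Tconv-phagocytic Ax647-2, and the calls of Slc2a1 and Hk3 were lost in 8 and 7 of 8 such cases (adjusted p up to 0.109). Without scaling the split was 3 higher and 5 lower after Tconv uptake, against 2.11% and 6.21% of all genes. After Treg uptake it was 4 higher and 9 lower, against 4.14% and 11.2% of all genes.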

How the data were processed

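RNA of 28 libraries was measured by RNA-seq (poly(A) RNA, directional libraries, per the labels' protocols). The deposited files give TPM per Ensembl gene; the submitters' processing notes name STAR, RSEM and mm10, with no version or role. Each library had 1 table of TPM and counts were not used here, so total depth is unknown, and relative depth was read from the spacing of low TPM values. TPM were scaled by an unweighted trimmed mean of log2 ratios (30% of ratios and 5% of levels trimmed). Genes at 1 TPM or more in at least 4 libraries (13631) were tested on log2(scaled TPM + 1) with limma 3.58.1 in R 4.3.3 (trended variance, only the groups compared in each fit, Benjamini-Hochberg over all genes tested, adjusted p under 0.05). Isozyme shares were compared with exact permutation tests (scipy 1.17.1). Scripts were tested on simulated data. No pair of libraries among 378 was identical. Same-numbered libraries' deviations from their group means correlated at -0.067 to 0.085. These correlations ran over all genes tested, low ones included, so they cannot exclude that replicate numbers pair libraries. Per-library values are given for up to 6 called genes in each direction per comparison, by size of change, and 8 control points of the pathway are described in each cytokine comparison. Alternatives were other scalings, pseudocounts, filters, models, a length and GC correction, replicate blocks, dyes and leaving out each library. The genes and lists were chosen with earlier results of these data known. Gene positions are from GRCm38 and promoters from RefSeq for GRCm38.p6.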

Additional observations from a re-analysis of the deposited data

Results flagged for a closer look

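In 13 of the 36 genes the difference between Treg-phagocytic and Tconv-phagocytic macrophages was itself different under IFN-γ and under IL-10 (limma adjusted p under 0.05, 4 libraries a group). Of the 36, 30.6% were higher and 5.56% lower, against 5.51% and 7.92% of all genes. Without scaling, 6 were higher and 3 lower, and the call of Mdh2 was often lost with 1 library left out, as given above. On the log2 scale, IFN-γ minus IL-10, the value was -1.316 for Hk3 (adjusted p 6.98e-06) and -0.518 for Pfkfb3 (0.018). It was 0.583 for Slc2a1 (0.0044), 0.376 for Eno1 (0.00292), 0.354 for Ldha (6.77e-05), 0.344 for Aldoa (5.05e-05) and 0.304 for Tpi1 (0.0103). It was 0.294 for Idh1 (0.0112), 0.29 for Pgam1 (0.00182), 0.277 for Mdh2 (0.0368), 0.273 for Pgk1 (0.00152), 0.259 for Pkm (0.000604) and 0.24 for Tkt (0.0169).

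In 8 of 252 sets of 4 libraries, 1 library stood apart from the other 3 by Dixon's 95% criterion, which chance meets in about 1 set in 20. Hk2 did so in 3 groups: IFN-γ Tconv-phagocytic Ax647-2 at 8.72 scaled TPM (next 7.18), IL-10 non-phagocytic replicate 2 at 22.1 (next 24.9) and IL-10 Treg-phagocytic BV421-1 at 23.1 (next 23.8). Hk1 was at 38.5 in IL-10 Tconv-phagocytic Ax647-2 (next 42.2) and Ldha at 456 in IL-10 Treg-phagocytic BV421-2 (next 473). Mdh1 was at 97.5 in IFN-γ Tconv-phagocytic BV421-2 (next 118). M0 replicate 1 was low for Aldoc at 5.96 (next 6.33) and high for Idh1 at 104 (next 97.6).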

How the results depend on the processing

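Of the 131 calls of these genes over the 10 comparisons, 131 were kept with median-of-ratios scaling, 131 and 130 with pseudocounts of 0.1 and 5, 129 with a 5 TPM filter, 125 with a variance weight per group, 122 with scaling to 1 reference library (an alternative chosen after seeing the data), 121 with a length and GC correction, 117 with a model of all 28 libraries, 114 without a filter and 103 without scaling. Without scaling, Taldo1 and Tkt reversed between IFN-γ and IL-10 (-0.038 and -0.236). The cause of these changes was not tested. The IFN-γ Treg against Tconv count of 14 was 5 without scaling, 9 with 1 reference library, 8 without a filter and 0 within each dye, where only 2 libraries a group remain. Of all genes, 5.16% were higher and 7.38% lower with the settings used above. These shares were 1.79% and 10% without scaling, 3.87% and 7.83% with 1 reference library and 1.44% and 2.49% without a filter. The IFN-γ Treg against non-phagocytic count of 6 was 3 without scaling, 17 with all 28 libraries and 11 with variance weights. Of all genes, 2.93% were higher and 5.41% lower with the settings used above, and 1.42% and 6.7% without scaling. Calls over all genes rose too, to 14% and 14.1% with all 28 libraries and to 3.7% and 6.79% with variance weights. The 2 counts of 0 became 1 (IFN-γ Tconv against non-phagocytic, all 28 libraries) and 3 (IL-10 Treg against Tconv, variance weights). With all 28 libraries, the IL-10 Treg and Tconv against non-phagocytic counts of 9 and 10 were 4 and 6, and the second was 6 without a filter.

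No label says that replicate numbers pair the libraries, and the near-zero correlations of same-numbered libraries cannot exclude it. With the replicate block, the IFN-γ Treg against Tconv count was 6, and 4 by the numbers of the library names. Of all genes, 2.46% were then higher and 4.75% lower, and 2.62% and 4.89% by the library names. With the block, the IFN-γ Treg, IL-10 Treg and IL-10 Tconv against non-phagocytic counts were 1, 0 and 0. The replicate block with length and GC correction gave 4, 1, 0 and 1 for these 4 comparisons. In contrasts with non-phagocytic macrophages, only non-phagocytic libraries carry the numbers 3 and 4. The block takes those libraries up, so only non-phagocytic replicates 1 and 2 enter such contrasts. The part of this loss of libraries in the lower counts was not tested. For IFN-γ Treg against non-phagocytic, 0.125% of all genes were higher and 0.983% lower with the block. Over all comparisons, the block kept 96 of the 131 calls.

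With 1 library left out, the counts ranged from 7 to 12 (IFN-γ Treg against Tconv), 4 to 5 (IFN-γ Treg against non-phagocytic), 0 to 0 (IFN-γ Tconv against non-phagocytic), 0 to 1 (IL-10 Treg against Tconv), 7 to 9 (IL-10 Treg against non-phagocytic), 6 to 8 (IL-10 Tconv against non-phagocytic), 24 to 28 (IFN-γ against IL-10), 25 to 27 (IFN-γ against M0), 24 to 28 (IL-10 against M0) and 12 to 16 (difference between the cytokines). Total depth is unknown, and the IFN-γ libraries were the shallowest, which limits the precision of low genes there, among them Aldoc, Idh3a, Pfkl, Hk2, Pfkm, Slc2a1 and Pdk1.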

Other observations

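Genes around citrate, malate and glutamine were listed beside the pathway. Of 13 tested, 4 were higher and 6 lower with IFN-γ against M0 (30.8% and 46.2%, against 27.7% and 25% of all genes). With IL-10, 1 was higher and 4 lower (7.69% and 30.8%, against 13.6% and 13% of all genes). Glul, glutamine synthetase, was at 143 ± 4.39 scaled TPM in M0, 94.0 ± 14.1 with IFN-γ (-0.61, SE 0.097, limma adjusted p 0.000742) and 192 ± 5.21 with IL-10 (0.42, SE 0.030, adjusted p 1.48e-05). Acly, which turns exported citrate into acetyl-CoA, fell with IFN-γ from 52.8 ± 1.60 to 31.2 ± 3.84 (-0.75, SE 0.087, adjusted p 0.000119). Under IFN-γ, Glul was higher in Treg-phagocytic (119 ± 15.4) than in Tconv-phagocytic macrophages (83.1 ± 7.91), by 0.50 (SE 0.106, adjusted p 0.0192), and Vegfa was lower (198 ± 10.3 against 298 ± 25.1, -0.58, SE 0.068, adjusted p 0.00225). These genes come from lists chosen with earlier results of these data known.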
